A study of Cardamine hirsuta with 6 samples.

Results

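The genes described are 3 *GH3* genes of *Cardamine hirsuta* that were bound by ChCUC1 in vitro: CARHR027600, CARHR234900 and CARHR245770, the matches of *Arabidopsis thaliana* *GH3.17*, *GH3.5* and *GH3.2*. They were chosen by gene ID because each has an assigned peak in the reproducible list, so the presence of a peak is part of the choice and not a result. They are 3 of 1876 genes named in the gene assignments used here, and their 3 peaks are among 2432 reproducible peaks. *GH3* genes encode enzymes that join auxin (indole-3-acetic acid) or related acids to amino acids. Most conjugates formed in this way are storage or breakdown forms, so the enzymes lower the level of free auxin, and many *GH3* genes are themselves induced by auxin. ChCUC1 is a NAC transcription factor that acts at leaf margins and organ boundaries, where auxin distribution sets the positions of leaflets.

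Binding was measured by DNA affinity purification sequencing (DAP-seq), in which a tagged protein made in a wheat germ extract selects fragments of purified genomic DNA. There were 3 samples of ChCUC1 with an N-terminal HaloTag and 3 control samples of the HaloTag alone, both incubated with genomic DNA of wild-type Oxford plants. By the protocol the DNA came from rosette leaves of mature plants, whereas the tissue label reads seedlings. Since the DNA is free of chromatin proteins, a peak shows that the sequence can be bound, not that it is bound in leaf cells.

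All values come from 4 peak lists made by the authors. The reproducible list was, by its name, selected by the irreproducible discovery rate. The other 3 were each called on 1 library against the pooled control. The full-library list, with 4778 peaks, used the reads of its library undivided. Subset A, with 3753 peaks, and subset B, with 3253, each used, by their names, a random part of the reads of 1 further library (a pseudoreplicate). Also by the names, subset A carries another run label than the full-library list and subset B. Fold enrichment is the signal at the summit of the peak, its highest point, relative to the Halo control. The lists hold no read counts, the depth of each library is unknown, and no value of a single peak carries a replicate error. The single-library lists share their control, and the reproducible list was made from the same group of libraries, so agreement between lists is not independent evidence. Coordinates are those of the lists, whose genome build the sources used here do not give, and binding motifs were not searched.

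The *GH3.17* gene had the strongest of the 3 peaks in every list. The enzyme is known in *A. thaliana* for conjugating auxin to glutamate. Its reproducible peak lay on chromosome 1 from 10115372 to 10115914, with the summit at 10115656, in the last intron of the gene. Its fold enrichment was 6.62 in the reproducible list, 6.52 in the full-library list, 6.35 in subset A and 5.86 in subset B. These values lay close together, and each was above the 95th percentile of its own list. Among the reproducible peaks, *GH3.17* ranked 67 by fold enrichment and 61 by −log10 p, which was 253. Its percentile by fold enrichment was 97.3 in the reproducible list, 98.4 in both the full-library list and subset A, and 97.0 in subset B. The −log10 p was smaller in the single lists, at 89.6 in the full-library list, 61.4 in subset A and 23.4 in subset B.

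The *GH3.5* gene came next in the reproducible list, with about the level of the upper part of the list rather than its top. In *A. thaliana* this enzyme acts on auxin and also on salicylic acid. The peak lay on chromosome 7 from 18582690 to 18583180, with the summit at 18582934, at the transcript end. Its fold enrichment was 3.81 in the reproducible list, 4.02 in the full-library list, 3.19 in subset A and 3.73 in subset B. It was highest in the full-library list and lowest in subset A, and all values were above the median of their list. It ranked 660 among the reproducible peaks by fold enrichment and 598 by −log10 p, which was 87.7. Its percentile by fold enrichment was 72.9 in the reproducible list, 87.6 in the full-library list, 72.0 in subset A and 83.2 in subset B. The −log10 p was 35.7 in the full-library list, 15.9 in subset A and lowest in subset B, in each case below that of *GH3.17* in the same list.

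The *GH3.2* gene, whose product also conjugates auxin to amino acids, had the lowest fold enrichment of the 3 in the reproducible list. The peak lay on chromosome 7 from 22590662 to 22591155, with the summit at 22590893, in the last exon, and 4.01 Mb from the *GH3.5* summit. Its fold enrichment was 3.32 in the reproducible list, 3.41 in the full-library list and 3.21 in subset A, and subset B had no peak there. The nearest summit in subset B was 45.5 kb away. *GH3.2* ranked 961 among the reproducible peaks by fold enrichment and 918 by −log10 p, which was 63.1. Its percentile was 60.5 in the reproducible list, 79.8 in the full-library list and 72.6 in subset A. The −log10 p was 25.1 in the full-library list and 16.1 in subset A, where it was close to that of *GH3.5*.

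**Figure D1:**
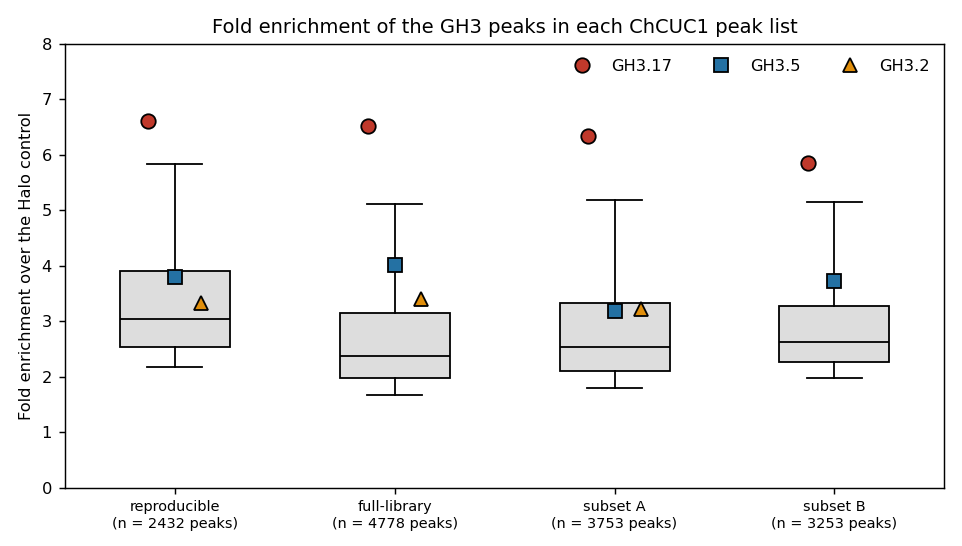
Fold enrichment over the Halo control (vertical axis) of the *GH3.17*, *GH3.5* and *GH3.2* peaks (coloured points) in each of the 4 ChCUC1 peak lists (horizontal axis). Grey boxes show all peaks of the list, with the median, the 25th to 75th percentiles and whiskers at the 5th and 95th percentiles. *GH3.17* lies above the upper whisker in each list, at 5.86 to 6.62, and *GH3.2* has no point in subset B.

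The order of the genes was fixed only at the top. *GH3.17* was 1.74 times as enriched as *GH3.5* in the reproducible list, 1.62 times in the full-library list, 1.99 times in subset A and 1.57 times in subset B. It was 1.99 times as enriched as *GH3.2* in the reproducible list, 1.91 times in the full-library list and 1.97 times in subset A. The single-library values of *GH3.17*, from 5.86 to 6.52, did not overlap those of *GH3.5*, from 3.19 to 4.02, or those of *GH3.2*, from 3.21 to 3.41. *GH3.5* and *GH3.2* overlapped and changed places: the ratio of *GH3.5* to *GH3.2* was 1.15 in the reproducible and 1.18 in the full-library list but 0.99 in subset A. Subset B called *GH3.5*, at 3.73, but not *GH3.2*, so it gives no ratio. The order of *GH3.5* and *GH3.2* was thus reversed only in subset A and by a small margin, and it is not set by these lists. No test was made, since each list gives 1 value per gene and the lists differ in the share of reads used and in run label.

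Set against peaks of all strengths, the spread between the single-library lists was small for *GH3.17* and ordinary for *GH3.5*. These lists differ in the share of reads used and in run label, and peaks of similar fold enrichment were not compared. The highest of the 3 single-library values of *GH3.17* was 1.11 times the lowest, and for *GH3.5* this ratio was 1.26. Over all 1519 reproducible peaks found in each of the 3 lists, the median ratio was 1.24. Of these peaks, 16.8% had a smaller ratio than *GH3.17* and 55.8% a smaller ratio than *GH3.5*. The lowest value of *GH3.17* came from subset B, as it did for 50.2% of the peaks, and that of *GH3.5* from subset A, as for 32.1%. *GH3.2*, with values in 2 lists, differed 1.06 times between them.

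*GH3.17* and *GH3.5* had a peak in each of the 3 single-library lists and *GH3.2* in 2 of them. Of all reproducible peaks, 62.5% were found in each of the lists and 31.4% in 2. By list, the share found was 98.8% for the full-library list, 92.1% for subset A and 65.0% for subset B. Presence in each list is thus the common case. The absence of *GH3.2* from subset B alone was shared by 28.9% of the reproducible peaks. Among the 200 peaks next to *GH3.2* in rank by fold enrichment, 100 above and 100 below, 161 were found in subset B and 39 were not. This share of 80.5% has a 95% exact binomial interval of 74.3 to 85.8%, which covers counting error over peaks only. Around *GH3.5*, the corresponding share was 93.0%, with 186 of 200 peaks found (88.5 to 96.1%). Around *GH3.17*, all 166 peaks were found, the 66 above it and the 100 below (97.8 to 100%). The size of these windows was chosen after the values had been seen. At the level of *GH3.2*, subset B thus lacked a part of the reproducible peaks, and the absence of a peak in it does not show a lack of binding. Why *GH3.2* was not called there was not tested.

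**Figure D2:**
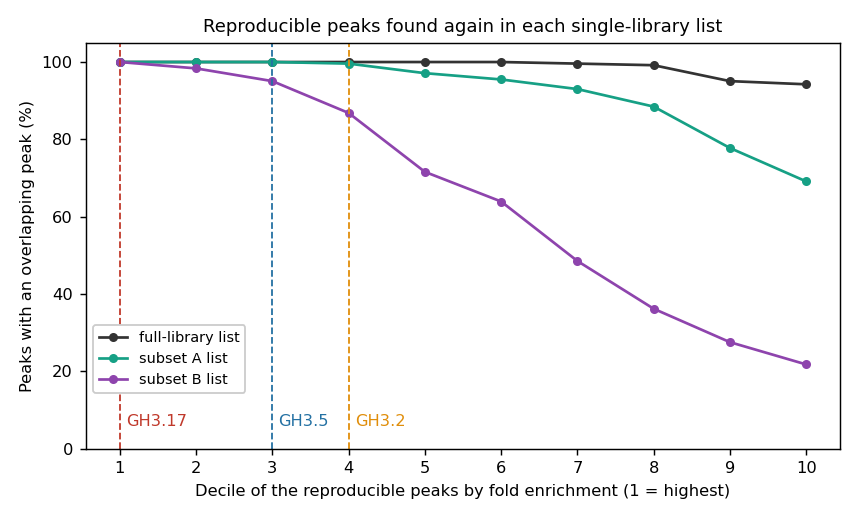
Share of reproducible peaks with an overlapping peak in each single-library list (vertical axis, %) by decile of the reproducible list in order of fold enrichment (horizontal axis, 1 = highest, 243 or 244 peaks each). Dashed lines mark the deciles of *GH3.17* (1), *GH3.5* (3) and *GH3.2* (4). For subset B it was 100% in the decile of *GH3.17*, 95.1% in that of *GH3.5*, 86.8% in that of *GH3.2* and 21.8% in the lowest decile.

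The summits of the *GH3* peaks lay within 13 bp of the reproducible summit in every list that had a peak. At *GH3.17*, the summit lay 8 bp from the reproducible one in the full-library list, 5 bp in subset A and 12 bp to the other side in subset B. At *GH3.5*, the distances were 8, 7 and 8 bp, all to the same side, so that the single-library summits spanned 1 bp. At *GH3.2*, they were 13 bp in the full-library list and 1 bp in subset A. Over all reproducible peaks found, the median distance was 6 bp in the full-library list, 8 bp in subset A and 12 bp in subset B. The largest of the *GH3* distances, 13 bp at *GH3.2*, was above the median of its list, where 81.7% of the peaks lay within 13 bp. The widths differed more: *GH3.17* was called over 543 bp in the reproducible list, 515 bp in the full-library list, 742 bp in subset A and 338 bp in subset B. *GH3.5* was called over 491, 463, 610 and 247 bp in the same order of lists, and *GH3.2* over 494, 485 and 614 bp in the 3 lists that have it. At *GH3.17* the call of subset B covered 62.2% of the reproducible peak, and at *GH3.5* it covered 50.3%. Both genes therefore still counted in each list under the stricter rule that the overlap cover at least 50% of each of the 2 peaks. *GH3.5* did so by a narrow margin. Of all reproducible peaks, of any strength, 14.6% met this rule in all lists. The share among peaks of similar fold enrichment was not computed.

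**Figure D3:**
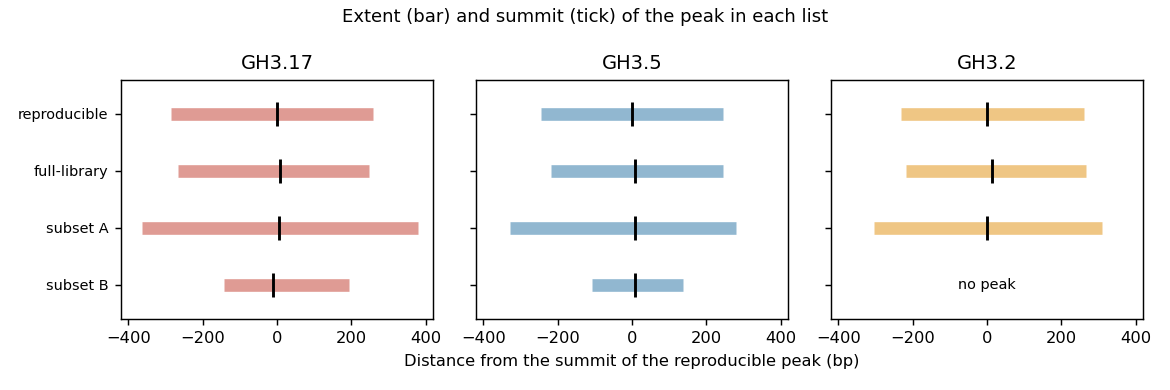
Extent (bars) and summit (black ticks) of the peak at each *GH3* gene, as distance in bp from the summit of the reproducible peak (horizontal axis), in each of the 4 lists (vertical axis). All summits lie within 13 bp of the reproducible one, the bars of subset B are the shortest, at 338 and 247 bp, and *GH3.2* has no peak in it.

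In the reproducible list the *GH3.17* peak stood alone within 50 kb, whereas weaker peaks lay in the neighbourhood of the others. No other reproducible peak had its summit within 50 kb of *GH3.17*, as was true of 19.7% of the 2408 reproducible peaks with another one on the same chromosome or scaffold. The nearest lay 70.7 kb away on the side of lower coordinates, with a fold enrichment of 2.34. On the other side the nearest was 251 kb away, with 4.24, and was assigned to CARHR028130. The single-library lists did have weaker calls within 50 kb of *GH3.17*: 1 in the full-library list, 3 in subset A and 1 in subset B. In the same order, the counts were 5, 3 and 2 at *GH3.5* and 4, 1 and 1 at *GH3.2*. A call lay 27.0 kb from *GH3.17* in the full-library list and in subset A, with fold enrichments of 2.21 and 2.48. In subset B one lay 26.3 kb away, with 2.23. All calls near *GH3.17* stayed at or below 2.48. *GH3.5* had 2 reproducible peaks within 50 kb and *GH3.2* also had 2, which was the median over all reproducible peaks.

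At *GH3.5*, the reproducible neighbours lay 9.49 and 10.6 kb away on the side of higher coordinates, with fold enrichments of 2.10 and 2.14. A further position, 8.0 kb away, was called in each of the 3 single-library lists but not in the reproducible one. Its fold enrichment there was 2.64 in the full-library list, 2.26 in subset A and 3.36 in subset B, where the *GH3.5* peak itself had 3.73. On the side of lower coordinates the nearest reproducible peak was 189 kb away, with 4.40, and was assigned to CARHR234390. The full-library list alone had a call 2.44 kb from the *GH3.5* summit, with a fold enrichment of 1.75.

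At *GH3.2*, the reproducible neighbours lay 14.6 and 21.6 kb away on the side of lower coordinates, with fold enrichments of 2.29 and 2.37. Both were called in the full-library list, at 2.33 and 2.43, and neither had a summit of a pseudoreplicate list at its position. The full-library list alone also had a call 2.09 kb from the *GH3.2* summit, enriched 1.43 times, with a −log10 p of 2.02 close to the limit of the list. On the side of higher coordinates the nearest reproducible peak was 161 kb away, with 2.78, and was assigned to CARHR246140, the match of *AINTEGUMENTA*, a transcription factor gene of organ growth. Each *GH3* peak was therefore the highest within 50 kb in every list that called it.

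**Figure D4:**
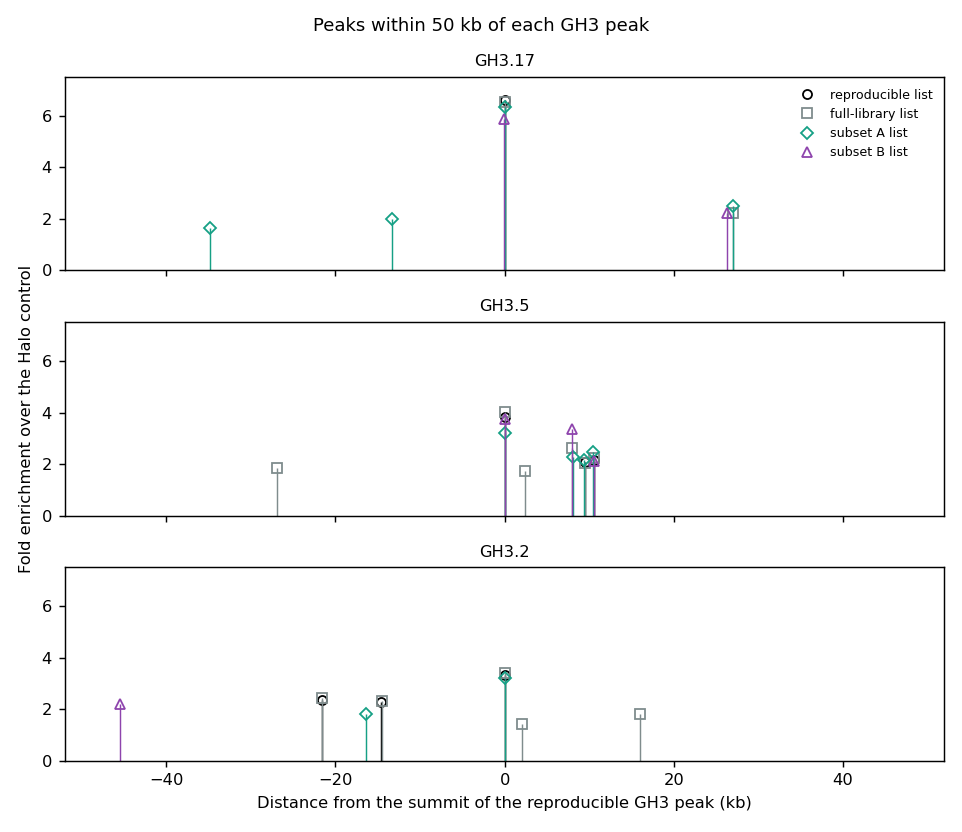
Peaks within 50 kb of each *GH3* peak in the 4 lists, with the distance of the summit from that of the reproducible *GH3* peak in kb (horizontal axis) and the fold enrichment over the Halo control (vertical axis). The *GH3* peaks stand at 0; the neighbours stay at or below 2.48 at *GH3.17*, 3.36 at *GH3.5* and 2.43 at *GH3.2*.

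By the gene annotation of the study, the 3 *GH3* peaks were in the last intron of *GH3.17*, at the transcript end of *GH3.5* and in the last exon of *GH3.2*. These are the categories of the annotation, and distances along the genes were not measured. The gene named in each category is also the gene to which the peak is assigned. Of the 1996 reproducible peaks with a gene in this annotation, 25.7% were in a last exon or last intron, in genes with 2 or more, or at a transcript end. With 3 peaks, and with the categories joined after the positions had been seen, this is a description and no test was made.

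Other genes of auxin metabolism were taken as lists of *A. thaliana* genes. Of the 19 genes of the *GH3* family, the 3 described here had an assigned reproducible peak and 16 did not in the rows used here, which cover 1997 of the reproducible peaks. The rows not used here hold the peaks with the lowest −log10 p, so weaker peaks at other *GH3* genes would be missed. As a background, the 1876 genes named correspond to 6.25% of the 30029 protein-coding genes of another *C. hirsuta* assembly (bc1021). This share counts *C. hirsuta* genes, whereas the lists count *A. thaliana* genes, so it is only a rough guide. Whether each listed gene has a match in *C. hirsuta* was not checked. Since the *GH3* genes were chosen for having a peak, nothing is read from their count. The 3 *GH3* peaks had a median fold enrichment of 3.81, against 3.28 over the 1996 peaks with a gene.

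Auxin synthesis genes also had assigned peaks, some above and some below those of *GH3.5* and *GH3.2*. Of 14 such genes, 3 had an assigned peak, against the same background and with no test made, all of the *YUC* family of flavin monooxygenases, which carry out the last step of auxin synthesis. *YUC7* (CARHR127240) had 2 peaks, with fold enrichments of 4.24 and 3.77, *YUC8* (CARHR236510) had 1 with 2.86, and *YUC3* (CARHR003960) had 1 with 2.79. The *GH3.17* peak was higher than each of them, while *GH3.5* and *GH3.2* lay within their range. The *YUC8* and *YUC3* peaks were below both, at percentiles 41.6 and 38.5 of the reproducible list. One peak of each *YUC* gene was in its first or only exon, a category that held 14.6% of the annotated peaks, and the stronger *YUC7* peak was intergenic. None of the 3 *GH3* peaks was in a first or only exon. None of the 4 *YUC* peaks was in a last exon or last intron, in genes with 2 or more, or at a transcript end. These categories together held 25.7% of the annotated peaks, so most peaks lie outside them, and nothing is read from so few peaks. The difference in position was seen before it was described and was not tested.

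Of 13 further genes, whose products oxidize, methylate or glucosylate auxin or release it from such conjugates, 2 had an assigned peak in the rows used here. The background is the same 6.25% of genes, weaker peaks would be missed, and nothing is read from this count. Both genes with a peak encode releasing enzymes, and both peaks were weaker than those of the *GH3* genes. The list is not complete: it leaves out, for example, the glucosyltransferase gene *UGT74E2*, whose peak (CARHR005200) is described with those most like *GH3.17*. The peak of *IAR3* (CARHR041920), which encodes an amidohydrolase that frees auxin from amino acid conjugates, was intergenic with a fold enrichment of 2.64. The peak of *MES17* (CARHR085450), which encodes an esterase that acts on methylated auxin, was in an intron with 2.46. *IAR3* was found in 2 of the single-library lists and *MES17* in 1.

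**Figure D5:**
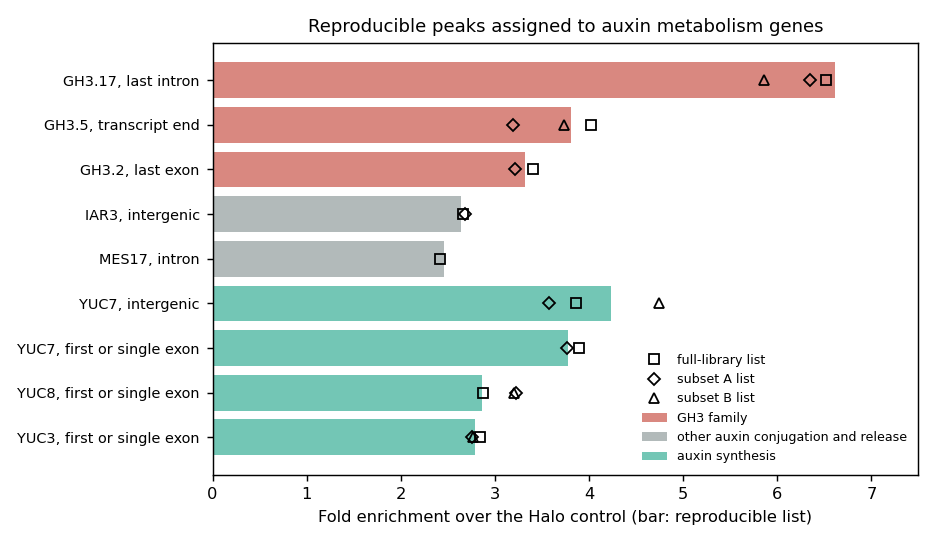
Fold enrichment over the Halo control (horizontal axis) of each reproducible peak assigned to a gene of the 3 auxin metabolism lists (vertical axis, with the place of the peak), as bars for the reproducible list and open symbols for the single-library lists. *GH3.17* is the highest of these at 6.62, the *YUC* peaks range from 2.79 to 4.24, and *IAR3* and *MES17* have the lowest bars at 2.64 and 2.46.

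The peaks whose fold enrichments over the 3 single-library lists were most like those of *GH3.17* were assigned to CARHR005200 and CARHR224670, at distances of 0.05 and 0.08 on the log2 scale among 1519 peaks. CARHR005200 is the match of *UGT74E2*, whose product in *A. thaliana* glucosylates the auxin indole-3-butyric acid. Its fold enrichment was 6.85 in the reproducible list, above the 6.62 of *GH3.17*, and 6.66 in the full-library list, 6.53 in subset A and 5.83 in subset B. The peaks most like *GH3.5* were assigned to CARHR166250 and CARHR014860, both at a distance of 0.06. For *GH3.2*, which lacked a value in subset B, none was computed. The likeness rests on 3 values per peak and describes levels of enrichment only.

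Among the study's own lists, CARHR245770 (*GH3.2*) has a row at each time point among the genes that responded to *ChCUC1:V* induction, whereas CARHR027600 and CARHR234900 have none in the rows used here. In the rows used here, none of the *GH3* genes, *GH3.2* included, is in the study's list of high-confidence targets. Nor, in the rows used here, is any of them in the list of genes bound in both DAP-seq and ChIP-seq. This does not show that they lacked binding in ChIP-seq. The share of all bound genes with such a row was not computed, since these lists were used only in part. Expression was not measured in the libraries described here, and no relation between binding and expression was tested.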

How the data were processed

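DAP-seq peak lists of 3 ChCUC1 samples against 3 Halo control samples were used as deposited. Bowtie, MACS2 and bedtools are named in the processing notes of the submitters, with their versions and the build not given in the sources used here. Fold enrichment, a ratio to the Halo control, came from the authors' peak caller. So did the deposited summits, scores (540 to 1000 in the reproducible list) and −log10 values of p-values and q-values. By their names, the single-library lists were called at a p-value threshold of 0.01 after removal of duplicates.

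The gene annotation of the study was joined on peak coordinates (1997 of 2432 peaks). Peaks were matched between lists at an overlap of at least 1 bp, taking the highest call, in pandas 2.3.3 and NumPy 2.4.6 under Python 3.11.15. Intervals were from SciPy 1.17.1 and figures from matplotlib 3.10.9, and the matching was tested on simulated data. Positions are 1-based. Genes named are the *GH3* genes, the auxin list members with an assigned peak, the nearest reproducible neighbours with a gene, and the 2 peaks most like each *GH3* peak, by Euclidean distance of log2 fold enrichment. The members and lists were chosen with earlier results of these data known. No count or permutation test applied, as each list gives 1 value per peak. Alternatives were other overlap rules, a q-value limit, the top 50% of each list, ranking by −log10 p and leaving out each list. The fold changes of the study's expression dataset were not used.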

Additional observations from a re-analysis of the deposited data

How the results depend on the processing

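No paired analysis was possible because none of the lists is tied to a replicate number, and the control samples were pooled. Of 43 alternative values, 32 stayed within their limits (1.5 times for a count or rank, the 95% interval for a share) and 11 moved. Counts and ranks have no direction to reverse. *GH3.17* and *GH3.5* were found in each single-library list at an overlap of 50%, with summits within 100 bp, at a q-value under 0.01 and in the top 50% of each list, and *GH3.2* in 2 lists each time. With a list left out, *GH3.17* and *GH3.5* kept 2 lists and *GH3.2* 1 to 2, which follows by arithmetic from the full counts. These values are part of the 43, so the tally is not a measure of stability. By −log10 p, the percentile of *GH3.5* was 88.9 in the full-library list, 74.3 in subset A and 88.3 in subset B, and that of *GH3.2* was 81.3 and 74.8 in the first 2 of these. The share of all reproducible peaks found in each list was 14.6% at an overlap of 50%, 58.2% with summits within 100 bp and 50.9% at a q-value under 0.01. With peaks in each list only, 2 *GH3* genes, 3 auxin synthesis genes and 0 of the other auxin genes remained. The rank of *GH3.2* among peaks found in each list could not be given. Widths differ between lists, which limits overlap. The cause of the other shifts was not tested.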
